A study of Arabidopsis with 12 samples.

Results

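The GROWTH-REGULATING FACTOR (GRF) genes that the microRNA miR396 targets, GRF1, GRF2, GRF3, GRF4, GRF7, GRF8 and GRF9, and the gene of their coactivator GIF1, were examined in Arabidopsis seedlings. These 8 genes of the 37825 in the expression table were taken by their locus identifiers, and all 8 passed the filter on low values. GRF proteins are plant transcription factors that keep cells of young leaves and other organs dividing. They carry a QLQ domain, through which they bind GIF coactivators, and a WRC domain, which binds DNA, and the authors' table annotates both domains in every GRF gene. The microRNA miR396 accumulates as leaf cells stop dividing and cleaves GRF messenger RNAs, and GIF1 (also called AN3 or ANGUSTIFOLIA3) joins GRF proteins to SWI/SNF chromatin remodelling complexes.

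RNA was sequenced from whole seedlings in 4 groups of 3 libraries. The groups were mutant 3 days, mutant control, WT 3 days and WT control, where the mutant is taken to be the double mutant mac3a3b that the series text names, mutated in MAC3A and MAC3B. Both genotypes were grown on sucrose-containing half-strength MS medium, and "3 days" stands for 3 days of recovery after heat, for which the protocol gives 37 °C. The other samples are titled control, but the series text describes them as 0 hours after heat, and neither the length of the heat nor the age of the plants is given in the sources used here. No unheated sample taken at 3 days is named, so heat, growth and hour of sampling cannot be told apart in any difference between 3 days and control. In RNA from whole seedlings, fewer cells of a type and less RNA per cell cannot be told apart either.

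Expression was deposited as TPM, a gene's length-corrected share of the transcripts in its library, so levels can be compared between genes but depth is unknown. Pearson's r between replicates ranged from 0.982 to 0.989, and no library stood apart from the others of its group. MAC3A had 6.12 ± 0.623 TPM in mutant 3 days, 9.74 ± 0.590 TPM in mutant control, 60.4 ± 1.03 TPM in WT 3 days and 34.7 ± 1.19 TPM in WT control (SD, n = 3 each), and MAC3B was likewise lower in the mutant, as the genotype labels say. The composition of the libraries differed between groups, and the median log2 fold change of the 22462 genes tested was -0.51 for mutant 3 days against WT 3 days, 0.060 for mutant control against WT control, -0.13 for the mutant's change at 3 days and 0.39 for that of WT. Fold changes below are log2 of TPM + 1 with the SE of the limma fit, and the added 1 shrinks the changes of weakly expressed genes. They are also given with median-of-ratios scaling, which brings the median gene to about the same level in all groups, and with quantile normalization, which gives all libraries the same distribution. Shares of all genes called higher or lower are percentages for TPM as deposited only, so they are no background for counts under another scaling.

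GRF3 and GRF4 varied most of the 8 genes over the 12 libraries on the log2 scale. GRF3 (AT2G36400), which acts with GRF1 and GRF2 in the growth of leaves and cotyledons, had 0.780, 0.670 and 0.530 TPM in the mutant 3 days libraries and 10.9, 11.1 and 11.6 TPM in the WT 3 days libraries. At control it had 22.4, 26.2 and 23.1 TPM in the mutant and 26.6, 27.0 and 28.7 TPM in WT. The 4 groups did not overlap, and GRF3 was the most abundant GRF gene in every group except mutant 3 days, by mean TPM. GRF4 (AT3G52910), a further factor of leaf growth, was listed at 0, 0 and 0.090 TPM in mutant 3 days, against 5.41, 4.66 and 6.40 TPM in WT 3 days. At control GRF4 had 10.3, 10.6 and 11.3 TPM in the mutant and 9.40, 10.6 and 10.7 TPM in WT. The control libraries of both genotypes overlapped for GRF4, and every mutant 3 days library lay below every other library.

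GRF1 and GRF2 kept more of their level in the mutant at 3 days. GRF1 (AT2G22840) had 5.41, 4.86 and 3.94 TPM in mutant 3 days and 9.72, 9.79 and 10.9 TPM in WT 3 days. At control GRF1 had 17.9, 21.2 and 20.8 TPM in the mutant and 16.1, 14.8 and 16.0 TPM in WT, so that the 4 groups did not overlap and mutant control was the highest. GRF2 (AT4G37740) had 6.53, 5.03 and 5.40 TPM in mutant 3 days and 5.48, 5.92 and 5.81 TPM in WT 3 days. At control it had 7.71, 9.39 and 9.04 TPM in the mutant and 8.26, 9.21 and 7.86 TPM in WT. For GRF2 the genotypes overlapped at each sampling point, and all control libraries lay above all 3 days libraries.

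GRF9, GRF7 and GRF8 were the weakly expressed members. GRF9 (AT2G45480), reported to restrict leaf growth, had 0.120, 0.340 and 0.090 TPM in mutant 3 days and 1.71, 1.66 and 1.72 TPM in WT 3 days. At control it had 2.59, 4.18 and 3.88 TPM in the mutant and 3.24, 4.13 and 3.36 TPM in WT, with the genotypes overlapping. GRF7 (AT5G53660), known as a repressor of the stress factor gene DREB2A, had 0.040, 0.040 and 0.170 TPM in mutant 3 days and 0.230, 0.580 and 0.380 TPM in WT 3 days. At control GRF7 had 0.950, 1.19 and 1.1 TPM in the mutant and 1.04, 1.17 and 1.12 TPM in WT. GRF7 passed the filter, a TPM of 1 in 3 libraries, through its control libraries only. A count which includes it, or its call between 3 days and control, is therefore a description. GRF8 (AT4G24150) ran the other way, with 2.30, 1.80 and 3.12 TPM in mutant 3 days and 0.580, 1.02 and 1.23 TPM in WT 3 days. At control it had 1.09, 1.81 and 1.54 TPM in the mutant and 0.570, 0.570 and 0.510 TPM in WT. At each sampling point every mutant library lay above every WT library, and mutant control overlapped both 3 days groups. GRF8 reached 1 TPM in every mutant library, in 2 WT 3 days libraries and in 0 WT control libraries. It passed the filter only through the mutant, so that a count or a call between genotypes which includes it is a description.

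GIF1 (AT5G28640), which has no DNA-binding domain of its own and is annotated with an SSXT domain in the authors' table, had 3.22, 3.14 and 2.64 TPM in mutant 3 days and 5.26, 5.59 and 5.01 TPM in WT 3 days. At control GIF1 had 19.3, 22.4 and 19.8 TPM in the mutant and 15.0, 15.3 and 16.4 TPM in WT. The groups did not overlap and came in the order mutant control, WT control, WT 3 days and mutant 3 days, from high to low, as for GRF1. The order of the genes within a group differed as well. In WT control GRF3 led, GRF1 and GIF1 overlapped below it, and GRF4, GRF2, GRF9, GRF7 and GRF8 came after them without overlap. In mutant 3 days GRF2 and GRF1 overlapped at the top, GIF1 and GRF8 overlapped below them, GRF3 came next, and GRF9, GRF7 and GRF4 overlapped at the bottom.

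**Figure D1:**
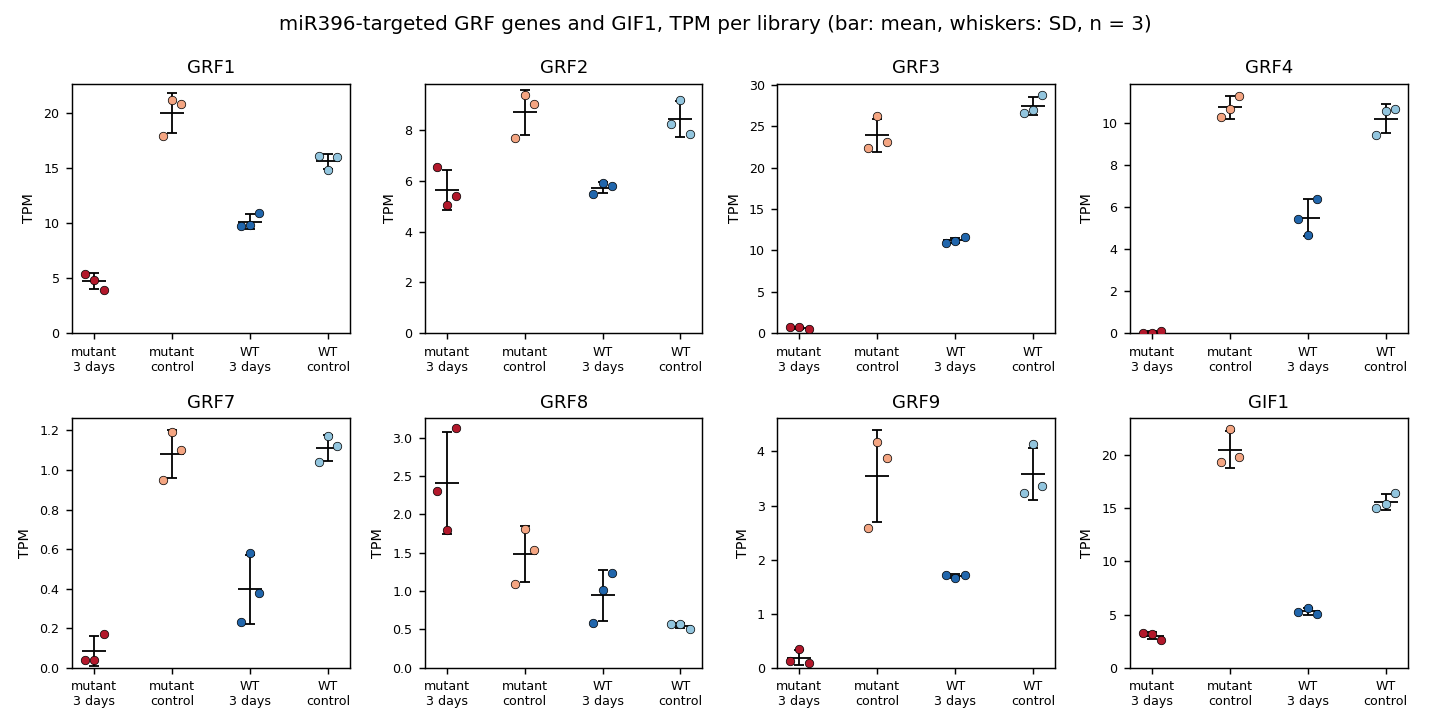
Level in TPM (vertical axes, each from 0) of the 8 genes in the 12 libraries, with points for libraries, a bar for the mean and whiskers for the SD of 3 libraries. In mutant 3 days GRF3 and GRF4 lay below 1 TPM in every library, GRF2 stayed at 5.65 ± 0.781 TPM and GRF8 was at its highest, 2.41 ± 0.666 TPM.

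Mutant and WT differed most at 3 days. Of the 8 genes, 6 were lower in the mutant (GRF1, GRF3, GRF4, GRF7, GRF9 and GIF1) and GRF8 was higher, in a comparison in which 58.7% of all genes tested were called lower and 24.1% higher at an adjusted p under 0.05. Most genes tested were lower in this comparison too, and of the 8 genes GRF3 and GRF4 lay farthest from the median gene. GRF3 differed by -2.88 ± 0.077 (limma, Benjamini-Hochberg adjusted p = 2.83e-11) and GRF4 by -2.65 ± 0.102 (limma adjusted p = 4.11e-10), which is -2.37 and -2.14 relative to the median of all genes. With median-of-ratios scaling the values were -2.47 for GRF3 and -2.35 for GRF4, with quantile normalization -2.03 and -2.12, and a pseudocount of 0.1 in place of 1 gave -3.91 and -5.48. GRF9, at -1.19 ± 0.144 (limma adjusted p = 9.35e-06), also kept its call, with -0.95 and -0.45 under the 2 other scalings.

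The remaining differences at 3 days moved with the scaling. GRF1 differed by -0.96 ± 0.099 (limma adjusted p = 2.15e-06), by -0.47 with median-of-ratios scaling and by -0.083 with quantile normalization, where the call was lost (adjusted p = 0.391). GIF1 differed by -0.65 ± 0.081 (limma adjusted p = 1.20e-05) and by -0.21 with median-of-ratios scaling, and it was called higher with quantile normalization, by 0.33 (adjusted p = 0.00219). GRF7 differed by -0.36 ± 0.112 (limma adjusted p = 0.0107), without a call under either other scaling. GRF2, at -0.024 ± 0.10 (limma adjusted p = 0.834), was called higher under both, by 0.45 and 0.85. GRF8 was higher under all 3 scalings, by 0.81 ± 0.170 on TPM as deposited (limma adjusted p = 0.000884), a description since it passed the filter only through the mutant. Relative to the median gene, GRF2 stood 0.48 and GRF8 1.32 higher and GIF1 0.15 lower on the log2 scale.

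**Figure D2:**
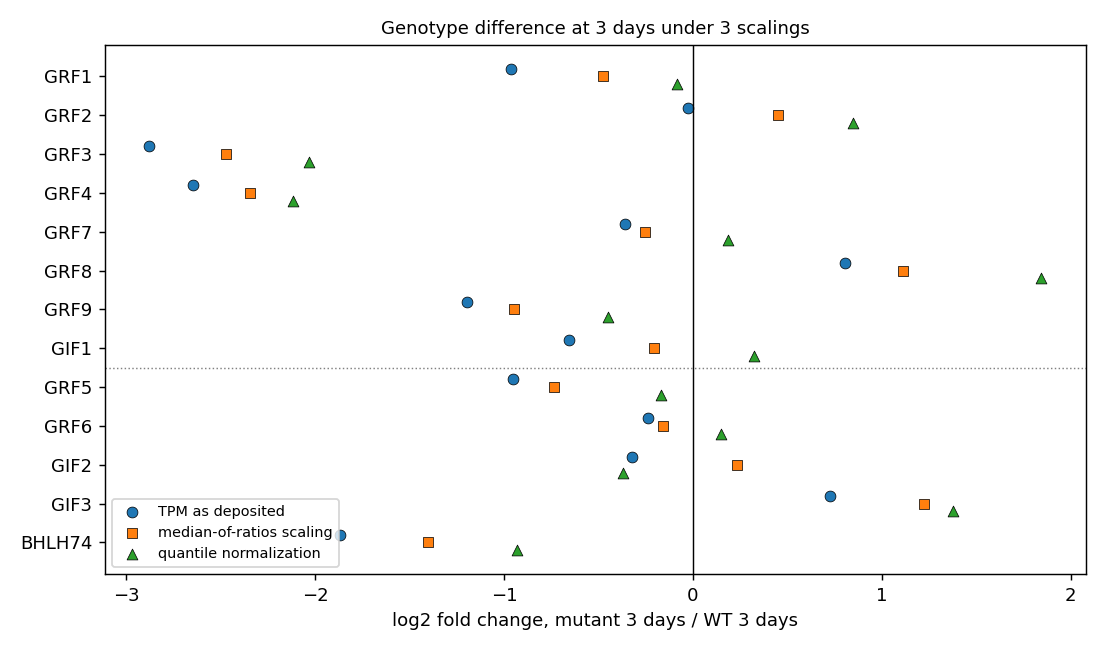
Log2 fold change of mutant 3 days over WT 3 days (horizontal axis) for the 8 genes, above the dotted line, and for the remaining GRF and GIF genes and BHLH74, below it, with TPM as deposited, median-of-ratios scaling and quantile normalization. GRF3 and GRF4 lay at or below -2.03 under all 3 scalings, while GIF1, GRF7 and GRF2 changed sign under at least 1 scaling.

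In control seedlings 3 of the 8 genes passed between genotypes. GRF1, GRF8 and GIF1 were higher in the mutant and none was lower, where 30.3% of all genes tested were called higher and 19.2% lower. The call of GRF8 is a description here too, since it passed the filter only through the mutant. GIF1 differed by 0.37 ± 0.081 (limma adjusted p = 0.00269), GRF8 by 0.67 ± 0.170 (limma adjusted p = 0.00681; 1.26 with a pseudocount of 0.1) and GRF1 by 0.33 ± 0.099 (limma adjusted p = 0.0155). GRF1 no longer passed when mutant control replicate 2 (adjusted p = 0.0593) or 3 (0.0540) or WT control replicate 2 (0.0566) was left out. GRF3 lay just outside the threshold at -0.20 ± 0.077 (limma adjusted p = 0.0531), with every mutant library below every WT library, and it was called lower with median-of-ratios scaling (-0.28, adjusted p = 0.0128), with quantile normalization (-0.29, adjusted p = 0.00678) and without mutant control replicate 2 (adjusted p = 0.0206), mutant 3 days replicate 1 (0.0361) or mutant 3 days replicate 3 (0.0370). GRF2, GRF4, GRF7 and GRF9 differed by between -0.022 and 0.067 with SE of 0.10 to 0.144, and none passed.

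In WT most of the genes were lower at 3 days than at control. GRF1, GRF2, GRF3, GRF4, GRF7, GRF9 and GIF1 fell and none was called higher, where 26.4% of all genes tested fell and 54.9% rose, and these 7 calls held with the 2 other scalings. The call of GRF7 and the count that includes it are a description, since it passed the filter only through control libraries. GIF1 changed by -1.40 ± 0.081 (limma adjusted p = 1.38e-08) and GRF3 by -1.22 ± 0.077 (limma adjusted p = 2.68e-08). GRF4, GRF9, GRF7, GRF1 and GRF2 changed by -0.80, -0.76, -0.60, -0.58 and -0.49 with SE of 0.099 to 0.144. With a pseudocount of 0.1 the change of the weakly expressed GRF7 was -1.35, beside -1.29 for GRF3 and -1.54 for GIF1. GRF8 changed by 0.31 ± 0.170 without passing (limma adjusted p = 0.110) and was called higher without WT 3 days replicate 1 (adjusted p = 0.0306), the library with the lowest GRF8 of its group. Since the median gene was 0.39 higher at 3 days in WT, the distances from it were larger, at -1.79 for GIF1 and -1.61 for GRF3.

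In the mutant the same 7 genes fell and GRF8 rose, where 46.5% of all genes tested fell and 39.4% rose. The call of GRF7 and the count that includes it are a description here too. GRF3 changed by -3.91 ± 0.077 (limma adjusted p = 8.43e-13), GRF4 by -3.51 ± 0.102 (limma adjusted p = 1.72e-11), GIF1 by -2.43 ± 0.081 (limma adjusted p = 5.68e-11), GRF9 by -1.93 ± 0.144 and GRF1 by -1.88 ± 0.099. GRF7 changed by -0.94 ± 0.112, and GRF2, the least of the 7, by -0.55 ± 0.10 (limma adjusted p = 0.000270), a call lost with quantile normalization (-0.038, adjusted p = 0.718). The GRF8 change of 0.45 ± 0.170 (limma adjusted p = 0.0268) was the least certain. Its mutant 3 days and mutant control libraries overlapped, and the call was lost with a pseudocount of 0.1 (adjusted p = 0.0512), with only the groups compared in the fit (0.0518), without mutant control replicate 1 (0.111) and without mutant 3 days replicate 3 (0.119).

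**Figure D3:**
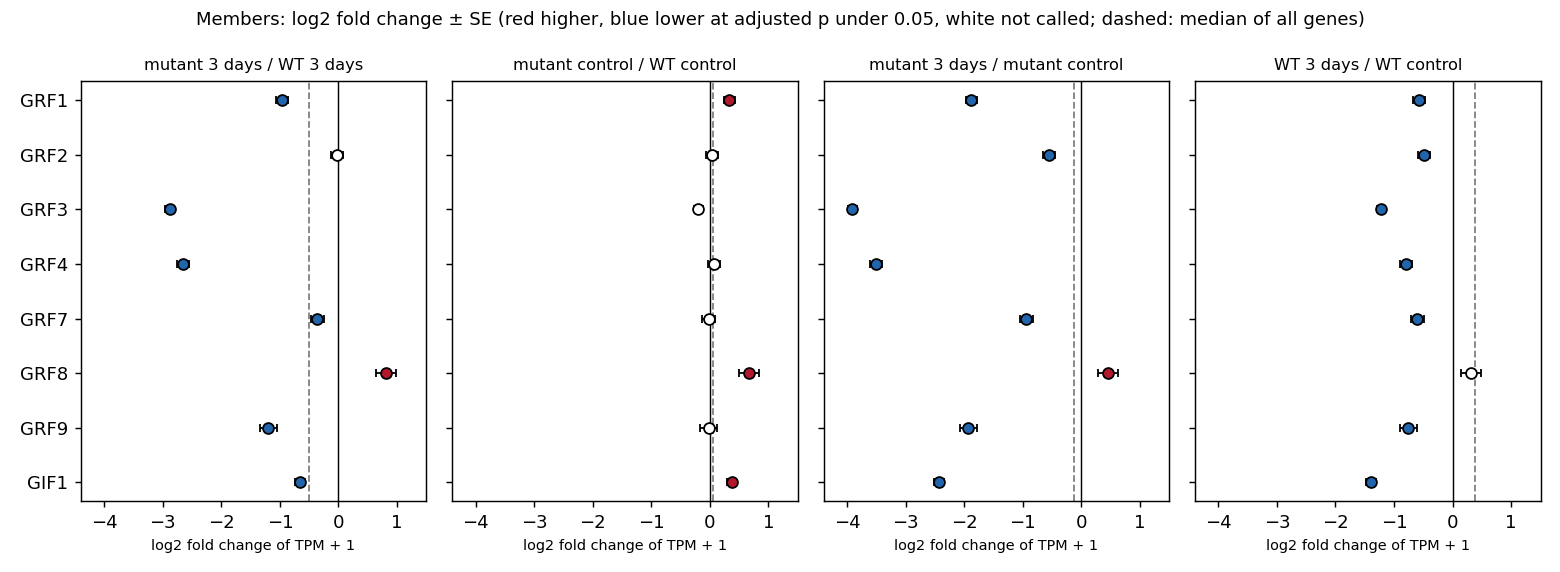
Log2 fold change of TPM + 1 ± SE for the 8 genes in 4 comparisons (horizontal axes), red for called higher, blue for called lower, white for not called, with a dashed line at the median of all genes tested. GRF3, GRF4, GRF9, GRF1 and GIF1 lay left of the dashed line at 3 days in both genotypes, and GRF3 and GRF4 reached -3.91 and -3.51 in the mutant.

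The change at 3 days was compared between genotypes as the difference of the changes, which shares its groups with the comparisons above. It was more negative in the mutant for GRF1, GRF3, GRF4, GRF9 and GIF1, and no member was called the other way, where 56.3% of all genes tested were called lower, 20.6% higher and the median was -0.55. GRF4 differed by -2.72 ± 0.144 (limma adjusted p = 1.32e-08) and GRF3 by -2.68 ± 0.108 (limma adjusted p = 1.64e-09), or -2.16 and -2.13 relative to the median gene. GRF1 differed by -1.30 ± 0.140 (limma adjusted p = 4.87e-06), by -0.73 with median-of-ratios scaling and by -0.36 with quantile normalization, past the threshold each time. For GRF9 the value was -1.17 ± 0.204 (limma adjusted p = 0.000250) and for GIF1 -1.03 ± 0.115 (limma adjusted p = 6.72e-06), but with quantile normalization GRF9 stood at -0.41 (adjusted p = 0.128) and GIF1 at -0.0022 (adjusted p = 0.986). GRF2 at -0.063 ± 0.141 (limma adjusted p = 0.697), GRF7 at -0.34 ± 0.159 (limma adjusted p = 0.0709) and GRF8 at 0.14 ± 0.240 (limma adjusted p = 0.613) did not pass. GRF2 was called higher with both other scalings (0.48 and 0.86) and GRF8 with quantile normalization (1.29), while GRF7 was called lower with a pseudocount of 0.1 (adjusted p = 0.0160), with no filter (0.0445), without the intensity trend (0.0326) and without WT 3 days replicate 1 (0.0221).

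The make-up of the GRF family is a ratio within each library and does not depend on a scaling factor. The 9 GRF genes measured, which add GRF5 and GRF6, summed to 14.0 ± 1.08 TPM in mutant 3 days, 79.4 ± 7.77 TPM in mutant control, 37.1 ± 2.42 TPM in WT 3 days and 75.9 ± 1.70 TPM in WT control (SD, n = 3 each). GRF1 and GRF2 together held 74.1 ± 4.69% of that sum in mutant 3 days, 36.2 ± 1.17% in the mutant control libraries, 42.8 ± 0.773% in WT 3 days and 31.7 ± 0.999% in WT control. GRF3 held 4.70 ± 0.677% in mutant 3 days, 30.1 ± 1.16% in the mutant control libraries, 30.2 ± 1.05% in WT 3 days and 36.2 ± 1.35% in WT control. The share of GRF4 was at most 0.666% in a mutant 3 days library and at least 12.2% in every other library. GRF8 made up 17.3 ± 5.10% in mutant 3 days, with 1 library at 23.1%, and at most 3.09% in any other library. For each of these shares the mutant 3 days and WT 3 days libraries did not overlap, for which the smallest two-sided p of an exact permutation test, with 3 libraries a side, is 0.1.

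**Figure D4:**
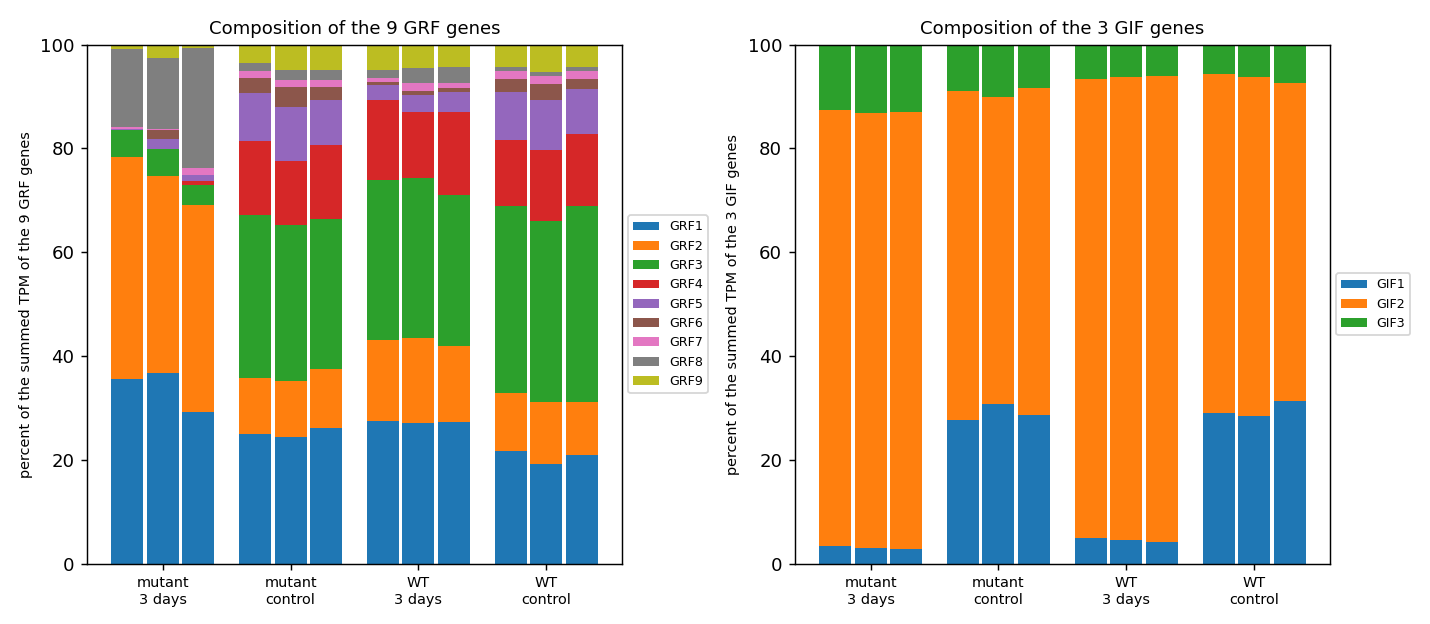
Percent of the summed TPM held by each of the 9 GRF genes (left) and the 3 GIF genes (right), 1 stacked bar per library, with the 3 libraries of a group side by side. In mutant 3 days GRF1, GRF2 and GRF8 fill most of the GRF bar, and GIF1 shrinks to 3.08% of the GIF bar there and to 4.61% in WT 3 days.

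The GRF genes that miR396 does not target, GRF5 and GRF6, were low at 3 days too. GRF5, which promotes cell division in leaves, had 0.040, 0.270 and 0.170 TPM in mutant 3 days and 1.05, 1.16 and 1.52 TPM in WT 3 days, against 7.52 ± 1.43 TPM in mutant control and 6.99 ± 0.439 TPM in WT control. It fell in the mutant by 2.87 ± 0.132 on the log2 scale (limma adjusted p = 9.46e-10) and in WT by 1.84 ± 0.132 (limma adjusted p = 9.16e-08), and at 3 days it was lower in the mutant by -0.95 ± 0.132 (limma adjusted p = 3.12e-05), a call lost with quantile normalization (-0.17, adjusted p = 0.394). GRF6 was listed at 0, 0.220 and 0 TPM in mutant 3 days and had 0.220, 0.240 and 0.320 TPM in WT 3 days, with group means between 1.90 and 2.42 TPM at control, and the genotypes did not differ past the threshold at either sampling point, except at 3 days with a pseudocount of 0.1 (-1.28, adjusted p = 0.0148).

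The other coactivator genes were higher at 3 days than at control in both genotypes. GIF2 had 80.5, 84.5 and 80.0 TPM in mutant 3 days and 94.6, 107 and 106 TPM in WT 3 days, against 43.5 ± 0.410 TPM in mutant control and 33.7 ± 1.64 TPM in WT control. GIF3 had 12.6 ± 0.706 TPM in mutant 3 days, 6.42 ± 0.801 TPM in mutant control, 7.19 ± 0.206 TPM in WT 3 days and 3.39 ± 0.452 TPM in WT control. At 3 days GIF2 rose by 0.89 ± 0.053 in the mutant (limma adjusted p = 1.06e-08) and by 1.58 ± 0.053 in WT (limma adjusted p = 1.40e-10), and GIF3 by 0.88 ± 0.096 and 0.91 ± 0.096. Between genotypes at 3 days GIF3 was higher in the mutant under all 3 scalings (0.73, 1.23 and 1.38), while GIF2 was lower by -0.32 ± 0.053 (limma adjusted p = 0.000133) on TPM as deposited and higher by 0.23 with median-of-ratios scaling. GIF1 held 3.08 ± 0.291% of the TPM of the 3 GIF genes in mutant 3 days and 4.61 ± 0.344% in WT 3 days, against 29.1 ± 1.54% in mutant control and 29.6 ± 1.55% in WT control. GIF2 and GIF3 each overlap a neighbouring gene in the RefSeq annotation, as do GRF1, GRF3, GRF7 and GRF9, and the strand setting of the counting is not given in the sources used here. Of these neighbours SBE2.1, beside GRF3, had 3.21 ± 0.251 TPM in mutant 3 days, 13.9 ± 0.207 TPM in mutant control, 35.9 ± 2.65 TPM in WT 3 days and 33.6 ± 0.650 TPM in WT control, and its part in the GRF3 values was not tested. ATOZI1, which overlaps GIF3, had 380.8 ± 14.3 TPM in mutant 3 days, 225.6 ± 10.1 TPM in mutant control, 313.3 ± 29.6 TPM in WT 3 days and 192.9 ± 5.54 TPM in WT control. Its groups came in the same order as those of GIF3, at a much higher level, and its part in the GIF3 values was not tested.

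BHLH74, a bHLH factor gene outside the GRF family that miR396 also targets, was likewise low in mutant 3 days. It had 2.23, 2.13 and 2.22 TPM there and 9.87, 10.9 and 11.2 TPM in WT 3 days, against 15.9, 16.7 and 14.8 TPM in mutant control and 12.1, 12.9 and 11.5 TPM in WT control. BHLH74 was lower in the mutant at 3 days by -1.87 ± 0.071 (limma adjusted p = 3.88e-10), with -1.40 and -0.93 under the other scalings, and higher at control by 0.35 ± 0.071 (limma adjusted p = 0.00169). It fell in the mutant by 2.39 ± 0.071 on the log2 scale. Its change in WT of -0.17 ± 0.071 (limma adjusted p = 0.0428) was lost under 8 alternatives, among them the fits without mutant control replicate 1, WT control replicate 1 or 2 and WT 3 days replicate 1 or 2 (adjusted p from 0.0561 to 0.162). The miR396 genes MIR396A and MIR396B were not analysed here.

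Genes that make and use microRNAs were mostly higher at 3 days. All 9 tested genes of the microRNA machinery rose in WT, where 54.9% of all genes did, with a median of 1.17 (8 with median-of-ratios scaling, without AGO1). In the mutant 6 rose and 3 fell, where 39.4% of all genes rose and 46.5% fell (6 and 1 with median-of-ratios scaling). DCL1, the enzyme that cuts microRNA precursors, had 19.6 ± 1.44 TPM in mutant 3 days, 7.04 ± 0.337 TPM in mutant control, 26.9 ± 0.146 TPM in WT 3 days and 8.64 ± 0.442 TPM in WT control. AGO1, the protein that carries the microRNA to its target, was lower in the mutant at 3 days by -1.72 ± 0.039 (limma adjusted p = 1.13e-11). There 4 genes were lower (DCL1, HEN1, AGO1 and PRL1) and 4 higher (HYL1, SE, CDC5 and MOS4), where 58.7% of all genes were lower and 24.1% higher. MOS4, a member of the same complex as MAC3A, was higher by 0.92 ± 0.051. With median-of-ratios scaling 1 was lower and 5 were higher, where 8634 of the 22462 genes tested were higher. At control 7 of the 9 were higher in the mutant, beside 30.3% of all genes. These were HYL1, SE, HEN1, HST, CDC5, PRL1 and MOS4, the last by 0.62 ± 0.051. DCL1 and AGO1 were the 2 lower genes, beside 19.2% of all genes, DCL1 by -0.26 ± 0.063 (limma adjusted p = 0.00518).

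The SWI/SNF genes, whose products GIF1 recruits, were mostly higher at 3 days, when GIF1 was lower. Of 13 tested, 12 rose at 3 days in WT, beside 54.9% of all genes, and 9 rose and 2 fell in the mutant, beside 39.4% and 46.5%. Between genotypes at 3 days 6 were higher and 4 lower in the mutant, beside 24.1% and 58.7% of all genes. With median-of-ratios scaling 10 were higher and 2 lower, where 8634 of the 22462 genes tested were higher. The following values are for TPM as deposited. SWP73A, a subunit gene, was higher in the mutant at 3 days by 1.30 ± 0.061 (limma adjusted p = 2.00e-09), and ARP4, an actin-related subunit, was lower by -2.09 ± 0.061 (limma adjusted p = 4.96e-11). At control 8 of the 13 were higher in the mutant and none lower, beside 30.3% and 19.2% of all genes.

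Among 9 tested genes reported as targets of GRF or GIF1 proteins, 3 were higher and 6 lower in the mutant at 3 days, shares near the 24.1% and 58.7% over all genes. With median-of-ratios scaling 4 were higher and 4 lower, where 8634 of the 22462 genes tested were higher. DREB2A, which GRF7 is reported to repress, had 81.8 ± 6.76 TPM in mutant 3 days, 2.85 ± 0.737 TPM in mutant control, 31.5 ± 1.65 TPM in WT 3 days and 3.29 ± 0.258 TPM in WT control, so that the groups stood in the reverse order of GRF7 at 3 days. DREB2A differed between genotypes at 3 days by 1.35 ± 0.124 (limma adjusted p = 8.52e-07). It is also a heat-responsive gene, and the part of GRF7 in its level was not tested. CRF2, a cytokinin response factor, had 0.510 TPM in mutant 3 days, 8.54 TPM in mutant control, 7.10 TPM in WT 3 days and 8.69 TPM in WT control on average, and was lower in the mutant at 3 days by -2.45 ± 0.141 (limma adjusted p = 1.22e-08). KNAT2, a meristem gene that GRF proteins are reported to repress, was higher in the mutant at control by 1.38 ± 0.111 (limma adjusted p = 2.41e-06) and HEC1, a bHLH factor, lower by -0.92 ± 0.183 (limma adjusted p = 0.00145). COL5 was the target that fell most in WT at 3 days, by 1.86 ± 0.069 on the log2 scale.

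Other regulators of leaf size were mostly lower in the mutant at 3 days. Of 19 tested, 15 were lower and 2 higher, beside 58.7% and 24.1% of all genes. Their median was -1.24 beside -0.51 for all genes. With median-of-ratios scaling 12 were lower and 5 higher, where 8634 of the 22462 genes tested were higher. CYCD3;1, a cyclin that keeps leaf cells dividing, had 2.06 TPM in mutant 3 days, 25.0 TPM in mutant control, 44.9 TPM in WT 3 days and 24.4 TPM in WT control on average, and differed between genotypes at 3 days by -3.91 ± 0.070 (limma adjusted p = 3.17e-12). ARGOS, which prolongs growth of leaves, ran the other way, with 27.6 TPM in mutant 3 days and 7.19 TPM in WT 3 days and a difference of 1.79 ± 0.161 (limma adjusted p = 6.85e-07). In WT 11 of the 19 rose at 3 days and 3 fell, near the 54.9% and 26.4% over all genes, or 6 and 7 with median-of-ratios scaling. In the mutant 4 rose and 13 fell, beside 39.4% and 46.5% of all genes.

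Further families under microRNA control were set beside the GRF genes. All 5 TCP genes targeted by miR319, which end cell division in leaves, were lower in the mutant at 3 days (4 with each other scaling, and 1 higher with quantile normalization), with a median of -1.15. Of the 9 SPL genes tested that miR156 targets, which advance the transition to the adult phase, 8 were lower and none higher, with a median of -0.88 (median-of-ratios scaling gave 6 and 1, quantile normalization 3 and 2). Over all genes 58.7% were lower and 24.1% higher in this comparison on TPM as deposited. With quantile normalization 8468 of the 22462 genes tested were lower and 9050 higher, and with median-of-ratios scaling 8634 were higher. The median of the 7 targeted GRF genes was -0.96 in the same comparison, and -0.47 and -0.083 under the other scalings. SPL2 differed most, by -3.44 ± 0.126 (limma adjusted p = 2.71e-10), having risen in WT by 1.19 ± 0.126 at 3 days, while TCP2 differed by -1.58 ± 0.124 (limma adjusted p = 1.92e-07). At control 6 SPL genes were higher and 2 lower in the mutant, and 1 TCP gene was higher and 2 lower, where 30.3% of all genes were higher and 19.2% lower. These counts hold SPL13A, lower by -0.84 ± 0.255 with overlapping groups, and SPL13B, higher by 0.58 ± 0.151. Whether reads were divided between SPL13A and SPL13B was not tested.

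Summed levels of markers of dividing cells and of organs, in TPM as deposited, were lower at 3 days, as 7 of the 8 genes were. The sums were not rescaled. Median-of-ratios scaling divides mutant 3 days libraries by 0.84 to 0.90 and WT 3 days libraries by 1.27 to 1.29. The order of the genotypes in a sum at 3 days can therefore change with the scaling. Summed over 13 genes, markers of dividing cells lay between 81.2 and 88.1 TPM in mutant 3 days, between 240.5 and 290.8 TPM in mutant control, between 97.5 and 105.8 TPM in WT 3 days and between 274.3 and 306.2 TPM in WT control. At 3 days 12 of the 13 fell and PLE, a microtubule bundling protein gene, rose, in the mutant and in WT alike. Over all genes tested 46.5% fell and 39.4% rose in the mutant, and 26.4% fell and 54.9% rose in WT. With median-of-ratios scaling 12 fell and 0 rose in WT. Between genotypes at 3 days 11 were lower and 1 higher in the mutant, beside 58.7% and 24.1% of all genes. With median-of-ratios scaling 9 were lower and 2 higher, where 8634 of the 22462 genes tested were higher. Quantile normalization gave 4 and 4, where 8468 genes were lower and 9050 higher. Shoot meristem markers, 5 genes, summed to between 3.95 and 5.08 TPM in mutant 3 days, 34.8 and 36.9 TPM in mutant control, 23.0 and 24.1 TPM in WT 3 days and 32.7 and 33.7 TPM in WT control. Of the 3 meristem genes tested, all were lower in the mutant at 3 days (2 with quantile normalization), beside 58.7% of all genes, KNAT1 by -2.31 ± 0.073. In WT at 3 days KNAT1 rose by 0.35 ± 0.073 (not with the other scalings), CLV1 fell by 1.14 ± 0.087 on the log2 scale and STM did not pass. The lower meristem sum in WT 3 days rests on CLV1, at 9.83 TPM there and 22.9 TPM in WT control on average. KNAT1 had 10.1 TPM in WT 3 days and 7.69 TPM in WT control, and STM 3.34 and 2.58 TPM. The stem cell genes CLV3 and WUS were low, did not pass the filter and were not tested. CLV3 was listed at 0 in all 3 days libraries and had 0.19, 1.23 and 0.53 TPM in mutant control and 0.17, 0 and 0.36 TPM in WT control. WUS had 0.15, 0.32 and 0.17 TPM in WT 3 days and was listed at 0 in all WT control libraries. Root markers, 7 genes, summed to between 32.5 and 49.5 TPM in mutant 3 days, 1638 and 1791 TPM in mutant control, 169 and 251 TPM in WT 3 days and 2486 and 2876 TPM in WT control. PYK10 made up nearly all of this sum. The other 6 root markers summed to 1.11 ± 0.381 TPM in mutant 3 days, 24.6 ± 6.23 TPM in mutant control, 23.0 ± 6.53 TPM in WT 3 days and 29.6 ± 5.20 TPM in WT control, so the lower sum in WT 3 days rests mostly on PYK10. In WT 3 of the 7 fell and WOX5 rose, beside 26.4% and 54.9% of all genes, while with either other scaling 5 fell and 0 rose. Green tissue markers, 5 genes, summed to between 2726 and 3696 TPM in mutant 3 days, 29667 and 30659 TPM in mutant control, 3967 and 5058 TPM in WT 3 days and 27572 and 28139 TPM in WT control. Between genotypes at 3 days 4 were lower and 0 higher in the mutant (2 and 1 with median-of-ratios scaling). RBCS1A, the most abundant, had 2045 ± 391 TPM in mutant 3 days and 1980 ± 193 TPM in WT 3 days, without a call (limma adjusted p = 0.827). With median-of-ratios scaling it was higher by 0.59. The part of these differences in the GRF and GIF1 values was not tested. Without PLE, an alternative added after the values were seen, the other 12 dividing-cell markers summed to 40.2 ± 1.48 TPM in mutant 3 days, against 75.3 ± 4.15 TPM in WT 3 days. The 7 targeted GRF genes summed to 13.8 ± 1.27 TPM in mutant 3 days, against 35.6 ± 2.12 TPM in WT 3 days.

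**Figure D5:**
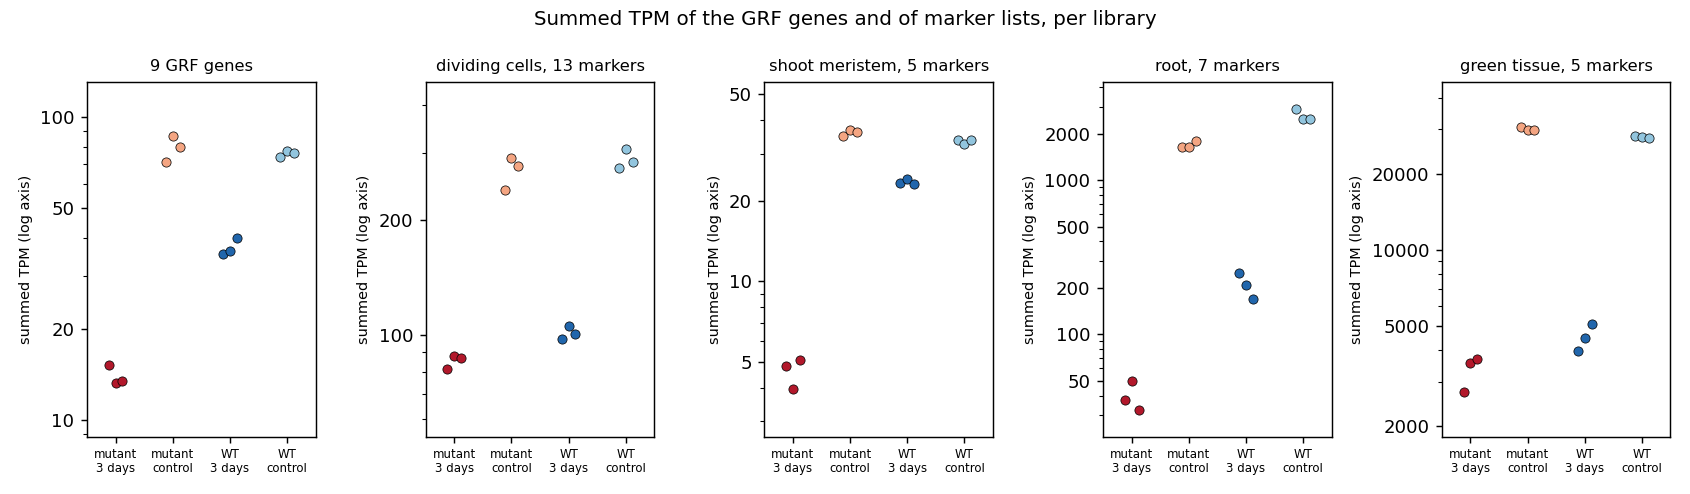
Summed TPM per library (log axes) of the 9 GRF genes and of marker lists for dividing cells, shoot meristem, root and green tissue. In TPM as deposited all sums were lower at 3 days than at control in both genotypes. Mutant 3 days lay below WT 3 days in every panel without overlap, an order that can change with the scaling. PYK10 carries the root sum, and CLV1 the lower meristem sum in WT 3 days.

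Genes with the most similar pattern were looked for among 7116 named genes with a mean of at least 5 TPM, by the root mean square difference of centred log2(TPM + 1) over the 12 libraries, where 0 would be an identical pattern. Closest to GRF3 was CAO at 0.0885 log2 units, followed by NF-YB3 at 0.126, a small distance beside the spread of GRF3 itself around its mean, 1.64. CAO encodes a chloroplast signal recognition particle protein in this annotation, and NF-YB3 a subunit of a CCAAT-binding factor. Closest to GRF4 was DXR, an enzyme of isoprenoid synthesis in the chloroplast, at 0.0959 beside a spread of 1.43. Closest to GRF1 was HPA1, an enzyme of histidine synthesis, at 0.115, followed by TCP3, one of the miR319-targeted TCP genes, at 0.123. GIF1 was nearest to DRP5A, a dynamin-related protein gene, at 0.149 and to CYCB1;1, a mitotic cyclin and one of the dividing-cell markers, at 0.156, beside a spread of 0.995. RTL1 was nearest to GRF9 at 0.136, EMB2759 to GRF2 at 0.0890, NFU2 to GRF7 at 0.102 and MP, the auxin response factor MONOPTEROS, to GRF8 at 0.187. Among the 8 genes themselves GRF3 and GRF4 stood at 0.267 and GRF8 was farthest from the rest, at 0.602 from its nearest. The added 1 flattens genes near 1 TPM, so the distances of GRF7, GRF8 and GRF9 say little of their relative change. These distances cover 4 groups only, so any gene with the same 4 group levels comes close.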

How the data were processed

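RNA of whole seedlings was measured in 12 libraries, 3 in each of 4 groups taken from the sample titles. Per the labels' protocols, messenger RNA was selected from total RNA by oligo dT, and a TruSeq kit of Illumina was used for the libraries. RSEM and the TAIR10 build were used, per the submitters' processing notes. Not given in the sources used here are the aligner, versions, filters and strand setting. A single table of TPM per gene and library, with gene length, was deposited by the authors. TPM is scaled to a fixed total, so depth is unknown and no counting interval can be given. RSEM estimates can divide reads between similar copies.

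Gene symbols came from a RefSeq table (assembly TAIR10.1), matched by locus for all 112 listed genes, of which 110 had a row in the expression table. Genes with at least 1 TPM in at least 3 libraries were kept (22462). limma 3.58.1 in R 4.3.3 was fitted with an intensity trend to log2(TPM + 1), with 1 mean per group over all 12 libraries. The 5 contrasts were mutant against WT at 3 days and at control, 3 days against control in each genotype, and the difference of those changes. Benjamini-Hochberg adjustment covered all genes kept, with calls under 0.05. Whether replicates came from separate cultures is not stated in the labels, and the p-values then reflect only the spread among these libraries, which may be technical. The fit was checked on simulated data in which few genes changed and no shift of composition between groups was put in. The check therefore does not cover the shifts of the median gene seen here.

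The 8 genes and the lists were chosen with earlier results of these data known. Named are all 8 genes, the remaining GRF and GIF genes, BHLH74, DREB2A, MAC3A and MAC3B, and examples from the called genes with the largest change per list and direction in a contrast. CLV3, WUS, STM, SPL13B, SBE2.1 and ATOZI1 are given as values beside a result and were chosen after their values were seen. MIR396A and MIR396B were not analysed here. Alternatives were a pseudocount of 0.1, no filter, 2 scalings, no trend, only the groups compared, the replicate number as a block, and leaving out each library.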

Additional observations from a re-analysis of the deposited data

Results flagged for a closer look

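The change at 3 days differed between the mutant and WT by a test of the difference itself (limma, adjusted p under 0.05) for 44 of the genes that the naming rule took in any comparison, 34 of them lower and 10 higher in the mutant. Over all genes tested 56.3% were lower and 20.6% higher. The rule took genes partly by their calls in this same comparison, so the count of 44 is a description. Among the 8 genes these were GRF1 (-1.30), GRF3 (-2.68), GRF4 (-2.72), GRF9 (-1.17) and GIF1 (-1.03), as log2 differences, mutant change minus WT change. The remaining family members GRF5 (-1.03) and GIF2 (-0.68) and the further miR396 target BHLH74 (-2.22) differed in the same direction, although the GIF2 value became -0.047 with median-of-ratios scaling and the GRF5 value -0.20 with quantile normalization, neither past the threshold.

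Beside them stood MAC3A (-1.38) and MAC3B (-0.99), which the genotype itself touches. Of the microRNA machinery MOS4 (0.31), SE (0.23), CDC5 (0.70) and AGO1 (-1.52) differed, and of the chromatin list SWP73A (0.44), SWP73B (0.79) and ARP4 (-2.18). Of the reported targets DREB2A (1.52), COL5 (0.52), KNAT2 (-0.81) and CRF2 (-2.42) differed, and of the leaf growth genes ARGOS (3.03), ARL (2.01), JAG (-1.43), AS2 (-1.88) and CYCD3;1 (-3.94). The microRNA targets TCP2 (-1.25), TCP3 (-1.35), TCP10 (-0.98), TCP24 (-0.51), SPL2 (-4.30), SPL3 (-0.45) and SPL10 (-1.86) differed too. Among the markers these were PLE (0.86), CYCA1;1 (-2.59), CYCB1;1 (-1.15), CYCB1;2 (-0.99), KNAT1 (-2.95), CLV1 (-1.57), WOX5 (-2.17), PYK10 (-1.61), PRP3 (-2.86), GAPA (-1.71) and LHCB1.1 (-4.28). The median of all genes tested was -0.55 in this comparison, and these values include that shift.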

How the results depend on the processing

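Scaling changed the counts most. For mutant against WT at 3 days, members called higher were 2 with median-of-ratios scaling and 3 with quantile normalization, members called lower 3 with quantile normalization, and all genes called higher were 8634 and 9050 and lower 8468 (quantile normalization). For the difference of changes, members called higher were 1 and 2 and lower 3 (quantile normalization), and all genes higher 8262 and 8319 and lower 7800 (quantile normalization). At control, 1 member was called lower with either scaling and without the intensity trend. In the mutant's change, 0 members were called higher with a pseudocount of 0.1 or only the groups compared. Leaving out 1 library gave 2 to 3 members higher and 0 to 1 lower at control, 1 higher and 6 lower at 3 days, 0 to 1 higher and 7 lower in either genotype's change, and 0 higher and 5 to 6 lower for the difference. Signs turned for values near 0. At control GRF2 stood at -0.036 with median-of-ratios scaling, -0.014 with quantile normalization and between -0.012 and 0.12 leaving out 1 library, and GRF4 at -0.0090 with median-of-ratios scaling. Leaving out 1 library gave -0.060 to 0.024 for GRF7, -0.12 to 0.14 for GRF9 and -0.051 to 0.17 for GRF5. At 3 days GRF2 stood at 0.45 with median-of-ratios scaling, 0.85 with quantile normalization and between -0.12 and 0.044 leaving out 1 library, GIF2 at 0.23 with median-of-ratios scaling, and with quantile normalization GRF7 at 0.19, GIF1 at 0.33 and GRF6 at 0.15. GRF8 in WT turned to -0.28 with quantile normalization. For the difference, GRF2 stood at 0.48 with median-of-ratios scaling, 0.86 with quantile normalization and between -0.16 and 0.0048 leaving out 1 library, GRF7 at 0.23 with quantile normalization, GRF8 between -0.0074 and 0.27 leaving out 1 library, and GIF3 at 0.53 with median-of-ratios scaling, 0.65 with quantile normalization and between -0.11 and 0.054 leaving out 1 library. The causes were not tested. Of 760 recomputed values of the 8 genes, 715 kept direction and side of the threshold. Replicate numbers did not pair the libraries (r of deviations from -0.0961 to 0.0772 over 18 pairs, 6 best with their own number). With the replicate number as a block, GRF6 gained a call in the difference (adjusted p = 0.0350), BHLH74 lost one in WT (adjusted p = 0.0548) and no call of the 8 genes changed. Unknown depth limits what can be said of GRF3, GRF4, GRF7 and GRF9 in mutant 3 days, which lay below 1 TPM.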
